A study of Mus musculus with 4 samples.

Results

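Developmental homeobox transcription factor genes were taken as the probe sets whose single annotated gene symbol starts with a Hoxa to Hoxd, Nkx, Pax, Lhx, Dlx or sine oculis (as in Six4) name followed by a digit. The rule found 97 of the 22690 probe sets on the array, which stand for 72 of 12393 genes. There were 32 Hox genes, 11 Nkx, 8 Pax, 8 Lhx, 8 Dlx and 5 sine oculis genes. Among the 72 were 3 antisense RNA genes that carry a family name, Hoxa11os, Dlx1as and Dlx6os2, and Pax1 and Pax9, whose proteins have a paired domain but no homeodomain. A further 3 probe sets shared by a pair of Hox genes were left out.

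The cells were R1 mouse embryonic stem (ES) cells, an established line, and both groups were infected with lentiviruses that express short hairpin RNAs (shRNAs) and were harvested 67 h later. In the knockdown group the shRNA was directed at Brg1 (gene symbol Smarca4), an ATPase subunit of the SWI/SNF chromatin remodelling complexes. In the control group it was directed at GLUT4, a glucose transporter. Each group had 2 arrays from duplicate infections of this 1 line, so the tests measure the spread between duplicate infections, and uninfected cells were not analysed here.

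Homeobox genes encode transcription factors that bind DNA through the homeodomain. Hox genes sit in clusters and set position along the body axis. Nkx2 and Lhx genes pattern the neural tube and forebrain, Pax genes the eye, neural tube and somites, Dlx genes the forebrain and branchial arches, and sine oculis genes the eye, kidney, muscle and sensory placodes. In ES cells most of these genes are known as Polycomb targets that are held silent while remaining ready for activation. SWI/SNF complexes are known to oppose Polycomb at many loci and also to repress genes in ES cells.

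On all 4 arrays the trimmed mean signal was 200.1, and the ES cell identity of the samples could be read from Pou5f1, the core pluripotency factor, at 2556 and 2418 signal units in the knockdown and 2367 and 2579 in the control. All 12 ES cell markers examined passed the filter on dim genes. Of them 4 rose (Nanog, Klf4, Fgf4 and Esrrb), 1 fell (Lin28a) and 7 did not pass. By the same test (limma, adjusted p under 0.05), 9.33% of the 7815 genes tested rose and 5.09% fell. Without the filter the 4 markers that rose kept their calls, and Lin28a lost its call (limma, adjusted p = 0.063). Smarca4 fell from 1186.6 and 1213.6 in the control to 652.1 and 621.5 in the knockdown. The change was -0.89 ± 0.08 in log2 units (SE; limma, adjusted p = 0.000232), so the depletion of the mRNA was partial. Differences throughout are in log2(signal + 20.0), which understates changes of dim genes.

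Most of the homeobox genes gave signals near background in both groups. The filter level for testing was 23.9 signal units, the 40th percentile over the non-control probe sets, and 60 of the 72 genes had both group means below it. The signal was below that level on every array for 53 genes. As another measure of background, the 27 probe sets for Bacillus transcripts, which mouse cells do not make, reached 15.1 at most on any array. That value came from knockdown replicate 1. Their highest signal was 10.2 on knockdown replicate 2 and 6.6 on each control array, so 15.1 is a loose bound for the control means. Of the 72 genes, 45 had both group means at or below 15.1, and so did the control mean of 63 and the knockdown mean of 46. Markers of unrelated adult tissues, such as pancreas, muscle and lung, had a median signal of 5 in the control and 11.5 in the knockdown over 18 genes, against 6.53 and 10.4 for the homeobox genes. In these marker genes, too, most differences were above 0 (13 of 18, against 59.0% of all genes). Mylpf, a muscle myosin light chain, rose (1.54 in log2 units; limma, adjusted p = 0.000253) while the other tested gene did not pass. No detection calls were used here, so a low signal is not called absent.

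**Figure D1:**
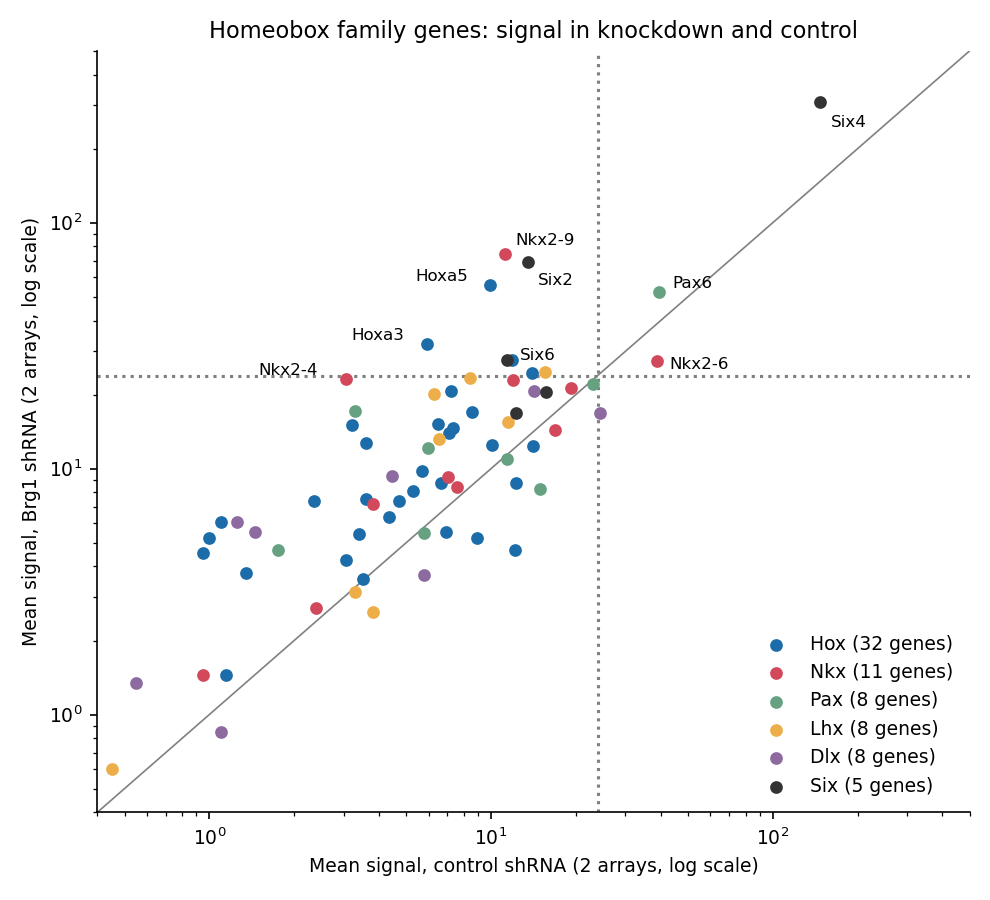
Mean signal of each of the 72 homeobox family genes in the control (x axis) and in the Brg1 knockdown (y axis), both on log scales, coloured by family. The diagonal marks equal signal and the dotted lines the filter level of 23.9; 60 genes lie below it in both groups, and Hoxa5, Hoxa3, Nkx2-9, Six2 and Six6 are among those above it in the knockdown but not in the control.

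Only 6 of the 72 genes passed the filter on the mean over all 4 arrays, namely Hoxa5, Nkx2-6, Nkx2-9, Pax6, Six2 and Six4. Of these, 4 rose with limma at an adjusted p under 0.05 (Hoxa5, Nkx2-9, Six2 and Six4) and none fell, while 9.33% of the 7815 genes tested were called higher and 5.09% lower. Hoxa5, Nkx2-9 and Six2 passed the filter only through their knockdown signal, so the count among the 6 is not read as a share. When every gene was tested without a filter, 6 of all 72 rose, the same 4 with Hoxa3 and Nkx2-4, where 2.61% of the 12393 genes were called higher. None of the 72 was called lower in that fit, where 0.88% of all genes were. At an unadjusted p under 0.05 (limma), 11 of the 72 (15.3%) were higher and 0 lower, against 14.0% and 7.86% of all genes. By size alone, 4 genes (Hoxa3, Hoxa5, Nkx2-9 and Six2) were at least 2-fold higher without overlap of the arrays, and 0.662% of all genes were. At 1.5-fold, 8 of the 72 were higher in this way, among them Six4, Six6, Nkx2-4 and Hoxd11, and 3.82% of all genes were. None was lower by either fold, and of all genes 0.0726% and 1.19% were, which is close to none of 72. In these bulk samples, more cells with a transcript and more RNA per cell cannot be told apart.

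The DNA just upstream of the 4 genes called higher is shown because they moved in the same direction. Each sequence is the 250 bases before the first listed transcription start in the RefSeq promoter table, written along the gene's strand. Each window was searched on either strand for 7 motifs, and capitals mark the matches, with overlapping matches run together. The general promoter motifs were the TATA box, TATAAA, and the GC box, GGGCGG. The CCAAT box was searched by the letters of its name. A homeodomain palindrome was searched as TAATTA. A site for GLI factors, which relay Hedgehog signals, was searched as GACCACCCA. A joint HOX and PBX site was TGATNNAT, and the last motif was the retinoic acid response element, a direct repeat.
Hoxa5 (GRCm38.p6, chr6:52204588-52204837, minus strand): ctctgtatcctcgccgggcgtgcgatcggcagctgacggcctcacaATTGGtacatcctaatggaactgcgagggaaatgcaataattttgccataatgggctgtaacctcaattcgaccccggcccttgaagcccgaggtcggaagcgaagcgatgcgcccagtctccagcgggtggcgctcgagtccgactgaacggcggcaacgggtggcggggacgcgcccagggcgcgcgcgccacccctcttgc
Nkx2-9 (GRCm38.p6, chr12:56613285-56613534, minus strand): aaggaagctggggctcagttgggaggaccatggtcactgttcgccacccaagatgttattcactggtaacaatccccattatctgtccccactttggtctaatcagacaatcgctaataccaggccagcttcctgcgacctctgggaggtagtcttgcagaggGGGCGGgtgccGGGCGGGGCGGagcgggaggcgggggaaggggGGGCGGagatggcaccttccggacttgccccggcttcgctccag
Six2 (GRCm38.p6, chr17:85688255-85688504, minus strand): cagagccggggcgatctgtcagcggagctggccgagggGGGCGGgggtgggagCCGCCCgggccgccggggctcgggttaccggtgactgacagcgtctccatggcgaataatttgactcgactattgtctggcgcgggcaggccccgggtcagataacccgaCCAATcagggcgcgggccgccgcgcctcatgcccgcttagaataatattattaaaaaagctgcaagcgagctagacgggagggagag
Six4 (GRCm38.p6, chr12:73113246-73113495, minus strand): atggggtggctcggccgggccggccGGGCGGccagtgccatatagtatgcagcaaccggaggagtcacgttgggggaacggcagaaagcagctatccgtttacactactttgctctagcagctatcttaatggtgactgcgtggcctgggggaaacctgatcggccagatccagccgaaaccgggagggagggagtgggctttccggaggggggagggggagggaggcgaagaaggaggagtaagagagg

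The windows held 28 CpG dinucleotides for Hoxa5, 26 for Six2, 15 for Six4 and 13 for Nkx2-9, where the median over all 32851 promoters was 6. High CpG content was general among the families: the 50 genes with an entry had a median of 13.5 (range 2 to 35). Nkx2-9 held 4 GC boxes, of which a pair overlap, Six2 2 GC boxes and 1 CCAAT box, Six4 1 GC box, and Hoxa5 1 CCAAT box on the opposite strand. The window of a second listed Six4 start, not shown, held 1 GC box and 1 CCAAT box. GC boxes were in 32.7% of all promoters and 53.4% of the 58 promoters of the homeobox genes. CCAAT boxes were in 33.8% and 43.1%. TATA boxes (12.4% of all promoters), homeodomain palindromes (4.84%) and HOX and PBX sites (7.68%) had no match in these 4 windows, nor did the rarer GLI site (0.225%) and retinoic acid response element (0.00913%). A match describes letters, not binding, and no match says only that the letters are not in the window.

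Six4, a homeodomain factor that acts in muscle and kidney precursors together with Eya cofactors, had signals well above the filter level in both groups. It read 310.4 and 307.3 in the knockdown and 154.2 and 140.2 in the control. The knockdown arrays lay close together, and both were far above both control arrays. The log2 difference was 0.98 ± 0.11 (SE, 95% interval 0.74 to 1.22; limma, adjusted p = 0.000551), or 1.97-fold. A second, dimmer probe set of Six4 gave 30.8 and 37.8 against 15.2 and 13.4, a log2 difference of 0.66 in the same direction, which did not pass when each probe set was tested by itself without a filter (adjusted p = 0.121).

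Six2, known for keeping nephron progenitors of the kidney undifferentiated, read 68.7 and 69.6 in the knockdown and 19.9 and 7.1 in the control. Both control values lay below the filter level and both knockdown values above it. The log2 difference was 1.44 ± 0.20 (SE; limma, adjusted p = 0.00219, and 0.0291 without the filter). With the control near background, the size depended on the pseudocount, with 2.09 when a smaller one was added (2.5% of the trimmed mean in place of 10%) and 0.92 with a larger one (25%). Six6, an eye and pituitary factor, read 29.3 and 25.9 against 11.2 and 11.6, a log2 difference of 0.60 (SE 0.16), and did not pass without the filter (adjusted p = 0.097). For Six3, a forebrain and eye factor, the difference was 0.18 (95% interval -0.19 to 0.55), and for Six5 it was 0.22 (-0.42 to 0.86).

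Nkx2-9, a gene of the ventral neural tube known to respond to Hedgehog signalling, read 65.3 and 84.5 in the knockdown. On the control arrays it read 1.8 and 20.7, a wide spread at the level of background. The groups did not overlap. The log2 difference was 1.66 ± 0.27 (SE, 95% interval 1.06 to 2.26; limma, adjusted p = 0.00431). Because Nkx2-9 passed the filter only through its knockdown signal, the p without a filter is given too: it was 0.046 over genes, and 0.0635 over single probe sets, where the call was lost (limma, adjusted). The log2 difference was 2.58 at the smaller and 1.04 at the larger pseudocount. Nkx2-4, a hypothalamic factor, read 23.4 and 22.9 against 4.3 and 1.8, a difference of 0.91 ± 0.15 (SE; limma without a filter, adjusted p = 0.032). Another probe set of Nkx2-4 went the other way, at 3.5 and 2.3 against 18.8 and 4.2, and with the mean over both the difference was 0.24. Nkx2-6, a pharyngeal and heart factor, had the lowest difference of the family, with 31.1 and 23.8 in the knockdown and 32.6 and 44.8 in the control (-0.30 ± 0.18, adjusted p = 0.287). The remaining 8 Nkx genes had both group means below the filter level.

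Hoxa5, a Hox gene of the cervical and thoracic region that is also needed in the lung, read 52.3 and 59.5 in the knockdown and 11.5 and 8.4 in the control. It went from background to a low but measurable signal. The log2 difference was 1.34 ± 0.17 (SE; limma, adjusted p = 0.00129, and 0.0168 without the filter), and 2.03 or 0.82 at the smaller or larger pseudocount. Hoxa3, which patterns the pharyngeal pouches, thymus and parathyroid, read 32.0 and 32.5 against 4.8 and 7. Its log2 difference was 1.01 ± 0.15 (SE; limma without a filter, adjusted p = 0.0274), and 1.78 or 0.56 at those pseudocounts. A second probe set of Hoxa3 gave 10 and 20.6 against 4.7 and 12.1, which overlap, and a difference of 0.31.

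**Figure D2:**
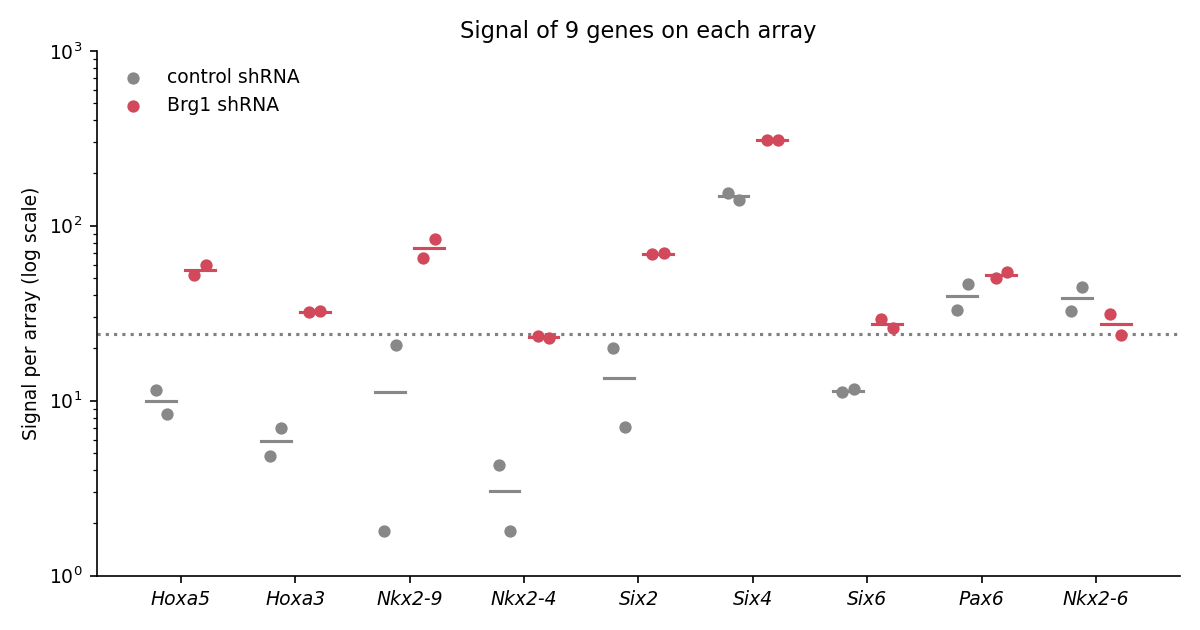
Signal on each array (log scale) for 9 genes, with control arrays in grey, Brg1 knockdown arrays in red and a bar at each group's mean; the dotted line is the filter level of 23.9. Six4 and Pax6 are above the line on all 4 arrays, while Hoxa5, Nkx2-9 and Six2 cross it only in the knockdown.

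**Figure D3:**
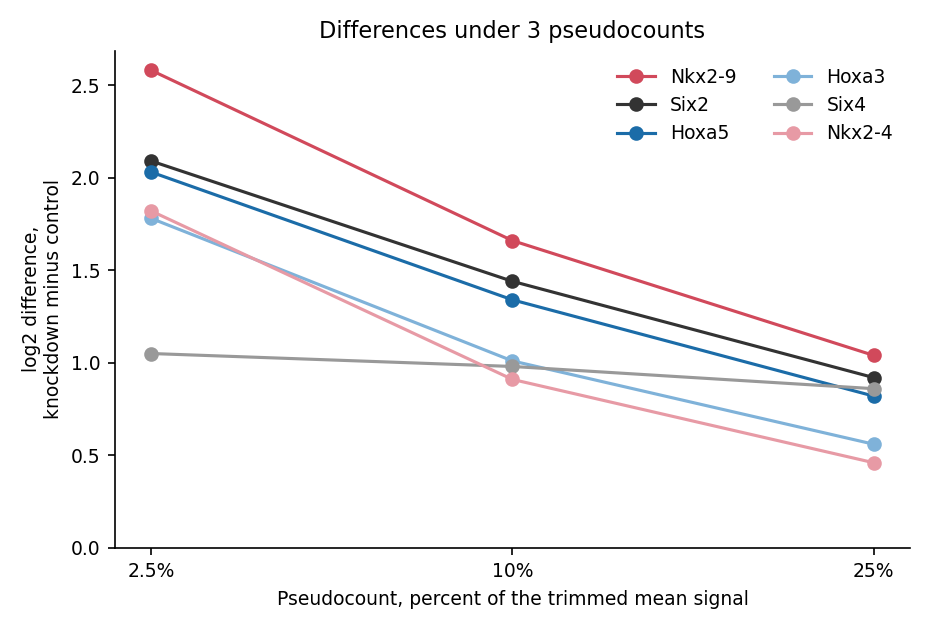
log2 difference (knockdown minus control) of 6 genes when 2.5%, 10% or 25% of the trimmed mean signal is added before taking logs. Six4 stays between 0.86 and 1.05, while genes with control signals near background shrink, Nkx2-9 from 2.58 to 1.04.

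The other Hox genes stayed dim. No Hox gene had a control mean at the filter level, the highest being 14.1 on the probe sets used. In the knockdown 4 of 32 reached that level (Hoxa3, Hoxa5, Hoxb4 and Hoxc6). Hoxc6 did so through 1 array, at 12.9 and 42.2 in the knockdown against 12.7 and 11.2. A brighter Hoxc6 probe set, not used for the gene, overlapped, at 25.3 and 37.6 against 27.0 and 15.6 (0.32). A dimmer one gave 0.06. Hoxb4 read 28.2 and 20.6 against 11.5 and 16.5, but its other probe set went the other way without overlap, at 2.1 and 5.6 against 7.9 and 6.9 (log2 differences of 0.38 and -0.20). Hoxa10 (18.3 and 23.1 against 6.7 and 7.7) and Hoxd11 (16.8 and 13.2 against 0.8 and 5.6) had non-overlapping groups and log2 differences of 0.58 and 0.60. Neither passed without the filter (limma, adjusted p = 0.1 and 0.105). The lowest Hox difference was that of Hoxb9, at 1.8 and 7.5 against 22.1 and 2.4, where the control arrays disagreed with each other.

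Along the Hoxa cluster on chromosome 6, the log2 differences were 0.15 for Hoxa2, 1.01 for Hoxa3, 0.01 for Hoxa4 and 1.34 for Hoxa5. Beyond Hoxa5 they were -0.07 for Hoxa7, -0.16 for Hoxa9, 0.58 for Hoxa10, 0.34 for Hoxa11 and 0.11 for Hoxa13. These values depend on the probe set used: a second one for Hoxa9 gave 0.30, at 8.9 and 13.2 against 3.2 and 7.2, and a second one for Hoxa3 gave 0.31. In the Hoxd cluster on chromosome 2, a run of adjacent genes from Hoxd11 (0.60) through Hoxd10 (0.48) and Hoxd9 (0.41) to Hoxd8 (0.21) had every knockdown array above every control array, all at signals under the filter level. Of all genes below the filter, 27.2% were higher in this way. Shorter runs were Hoxa2 with Hoxa3, Hoxa10 with Hoxa11, and Hoxb5, Hoxb3 and Hoxb4 (0.25, 0.23 and 0.38) on chromosome 11. Hoxd12, next to Hoxd11, was at 1.2 and 1.7 against 0.9 and 1.4. Six4 and Six6 lie on chromosome 12 with 1 coding gene between them. Six2 is adjacent to Six3 on chromosome 17. Nkx2-9 lies between Nkx2-1 (0.12) and Pax9 (0.00), neither of which was called in the fit without a filter. Genes of one cluster share a locus and are not independent of each other, and differences between neighbours were not tested.

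**Figure D4:**
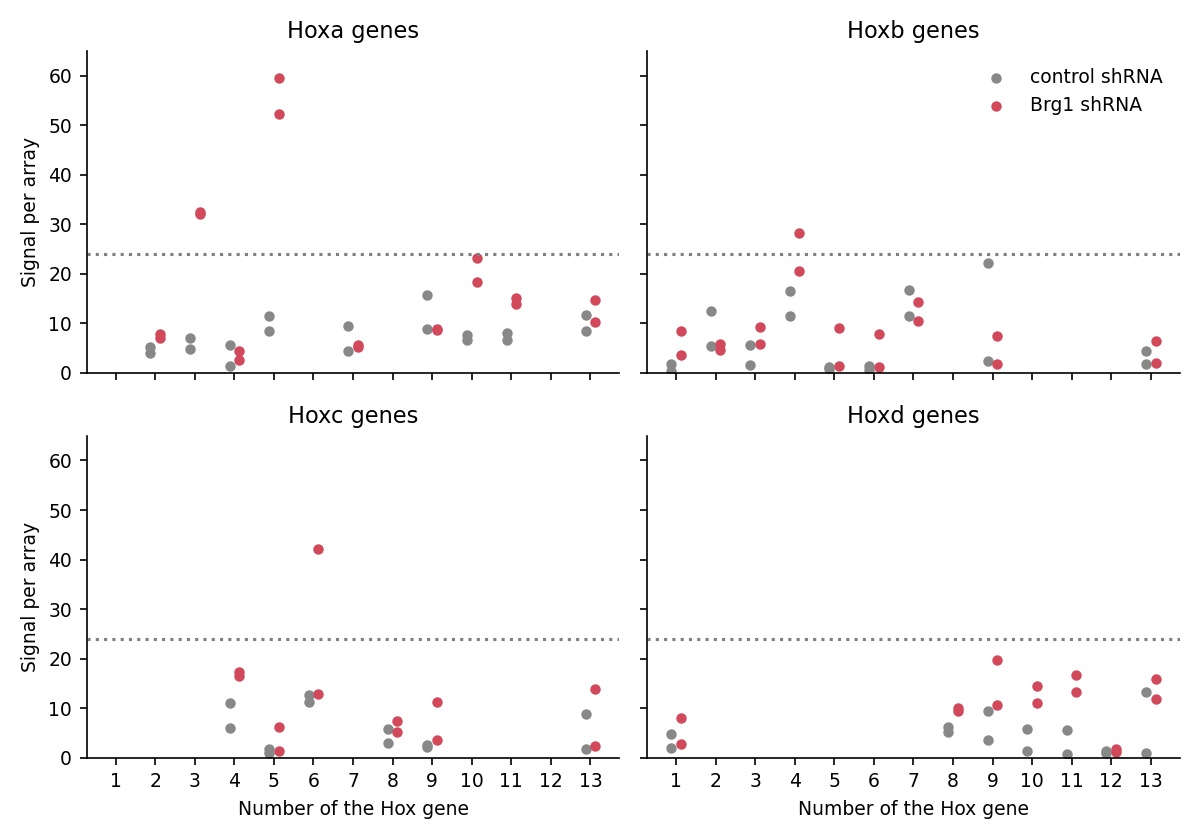
Signal of each Hox gene on each array, 1 panel per cluster, ordered by the number of the gene, with control arrays in grey and Brg1 knockdown arrays in red; the dotted line is the filter level of 23.9. Both knockdown arrays stand above the line for Hoxa3 and Hoxa5, and 1 does for Hoxb4 and Hoxc6.

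Pax, Lhx and Dlx genes gave no call with or without the filter. Pax6, a master regulator of eye development that is also expressed in neural progenitors, was the Pax gene above the filter level, at 50.3 and 54.3 in the knockdown against 32.8 and 46.5 in the control. The log2 difference of 0.29 ± 0.17 did not pass (95% interval -0.09 to 0.66; limma, adjusted p = 0.28). These values came from the brightest of 5 Pax6 probe sets. The others had both group means below the filter level, with log2 differences of 0.13, -0.09, 0.15 and 0.18. The highest Pax difference, 0.55 for the B cell factor Pax5, came from 1 array, with 2.8 and 31.3 against 3.9 and 2.7. Pax3, a neural crest and somite factor, had the lowest (-0.32), with overlapping groups at 3.3 and 13.2 against 18.6 and 11.1. Its second probe set was higher in the knockdown without overlap, at 6.8 and 5.8 against 4.9 and 2.6 (0.15), and the mean over both gave -0.08.

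The same unevenness was seen in the Lhx genes, which encode LIM homeodomain factors of the brain and gonads. Lhx6 read 34.8 and 11.9 against 7.4 and 9.4, Lhx9 9.5 and 30.6 against 7.5 and 5, and Lhx3 8.9 and 40.3 against 15.0 and 16.2. In each the difference between the knockdown arrays was larger than that between the control arrays. Without knockdown replicate 1, Lhx3 passed, at a log2 difference of 0.76 (limma, adjusted p = 0.0289), against 0.23 with all 4 arrays. A second probe set gave a log2 difference of -0.09 for Lhx6 and -0.10 for Lhx3. For Lhx9 the second probe set was higher without overlap, at 12.2 and 15.5 against 8.8 and 6.8 (0.28). The difference of Lhx1 was -0.06, and its second probe set was lower without overlap (-0.25). Dlx differences ran from -0.27 (Dlx3, a skin and placenta factor, 13.7 and 20.1 against 22.5 and 26.3) to 0.27 (Dlx6, 1.6 and 10.5 against 1.2 and 1.3).

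**Figure D5:**
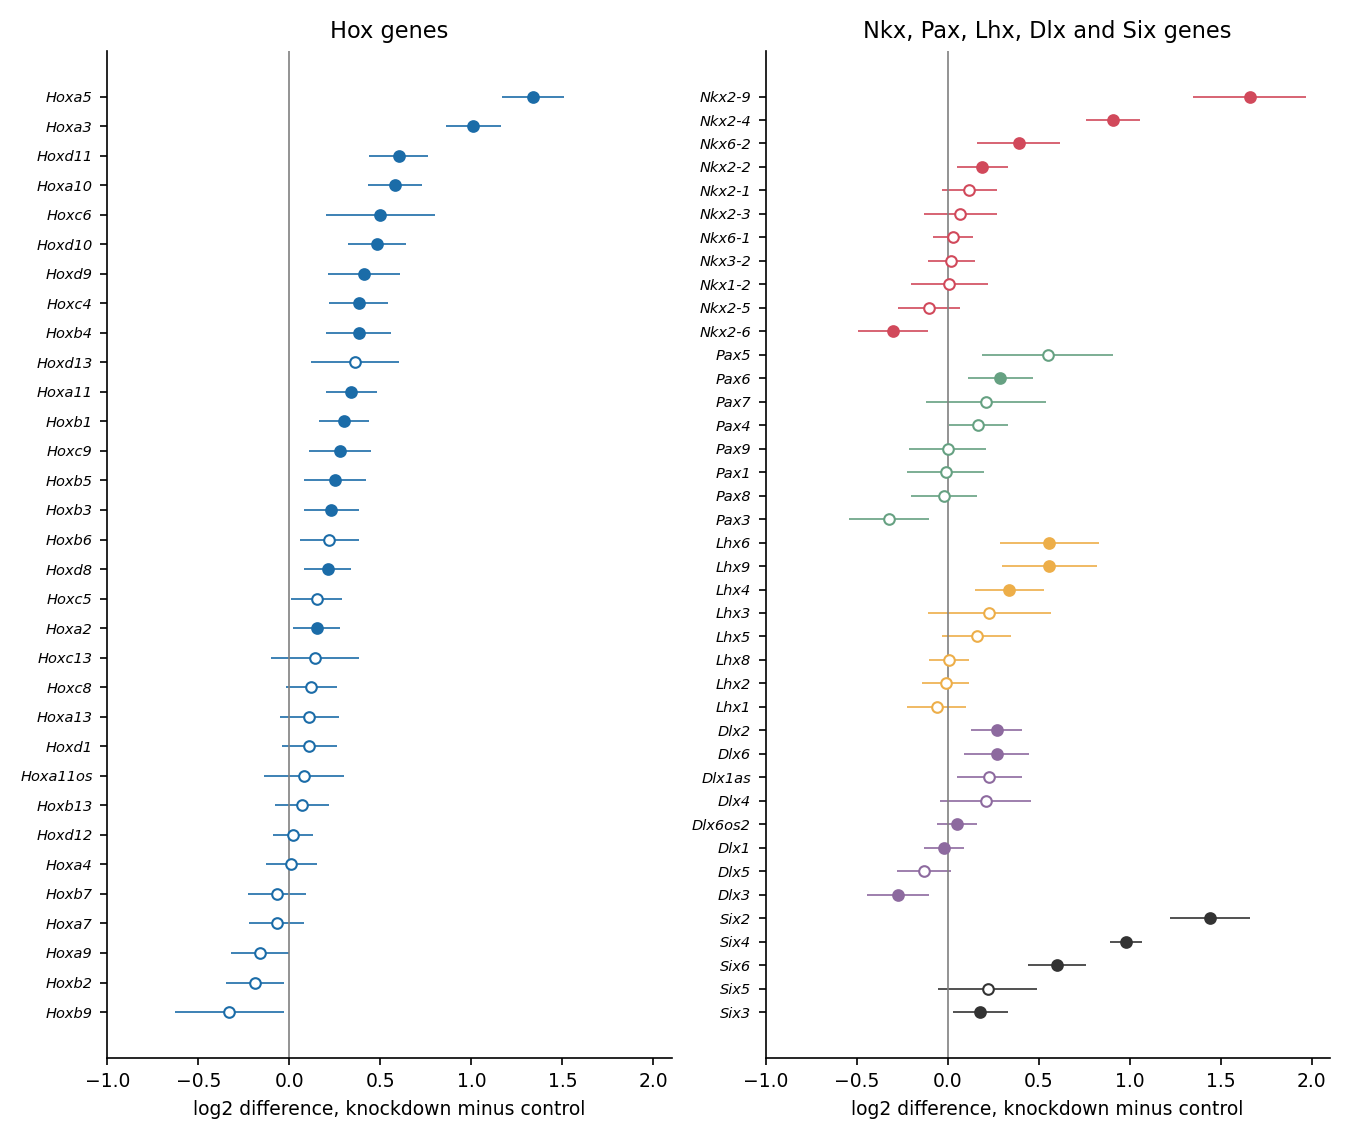
log2 difference (knockdown minus control) of each of the 72 genes, with Hox genes on the left and the other families on the right; bars are ± 1 SE from the limma fit without a filter. Filled points mark genes whose 2 knockdown arrays both lay on one side of both control arrays, 31 above and 3 below.

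Over all 72 genes the median log2 difference was 0.19, against 0.05 over all genes on the array. Differences were above 0 in 57 of the 72 (79.2%), against 59.0% of all genes. In 31 genes (43.1%) both knockdown arrays lay above both control arrays, and in 3 below, whereas 31.7% and 20.3% of all genes did so. By family, the groups did not overlap with the knockdown higher in 16 of 32 Hox genes, 4 of 11 Nkx, 1 of 8 Pax, 3 of 8 Lhx, 3 of 8 Dlx and 4 of 5 sine oculis genes. The 3 genes lower without overlap were Nkx2-6, Dlx3 and Dlx1. The median log2 difference was 0.21 for Hox, 0.07 for Nkx, 0.08 for Pax, 0.19 for Lhx, 0.13 for Dlx and 0.60 for the sine oculis genes. Dim genes leaned the same way: of the 4578 genes below the filter, 27.2% were higher with no overlap and 10.7% lower, against 26 and 2 of the 66 homeobox genes there. The second knockdown array held the highest of the 4 signals in 29 of these 66 genes and in 42.3% of all genes below the filter, and its part in the lean was not tested. These figures moved with the scaling of the arrays. With arrays centred on their median, 24 of the 72 genes (33.3%) were higher with no overlap and 7 lower, against 25.1% and 26.5% of all genes, and the median log2 differences were 0.14 and 0.00. With quantile normalization 22 (30.6%) were higher and 9 lower, against 27.2% and 24.1%, with medians of 0.13 and 0.01. With arrays scaled to their hybridisation spike-ins 37 (51.4%) were higher and 0 lower, against 56.2% and 4.53%, with medians of 0.26 and 0.27. The median of the homeobox genes was thus above that of all genes under each scaling but that to the spike-ins. Hoxa5, Nkx2-9, Six2 and Six4 kept their calls under each of these scalings.

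Cofactors and upstream regulators are given by their counts, beside the 14.4% of all tested genes that were called in either direction. Of 8 Pbx, Meis and Pknox genes on the array, whose proteins bind DNA together with Hox proteins, 3 were tested (Pbx2, Pbx3 and Pknox1). None of the 3 passed, nor at an unadjusted p under 0.05 in limma (median log2 difference -0.16, against 0.04 over all tested genes). The Meis genes were below the filter and not tested. Meis1 (0.34) and Meis2 (0.53) were higher without overlap, and Meis3 (-0.27) was lower without overlap. Among 6 tested cofactor genes of LIM and sine oculis factors, 5 did not pass (median -0.02). Lmo4 rose, from 136.6 and 197.7 to 241.7 and 251.4 (0.53 ± 0.15, limma, adjusted p = 0.0449). Below the filter, Dach1 (0.85), Dach2 (0.67), Eya4 (0.37), Ldb2 (0.50) and Lmo2 (0.52) were higher without overlap. Eya1 (-0.47) and Lmo1 (-0.18) were lower without overlap. Of all genes below the filter, 27.2% were higher and 10.7% lower in this way. Of 28 tested Polycomb and trithorax genes, Bmi1 alone passed and rose by 0.93 ± 0.14 (adjusted p = 0.00347; list median 0.09). Among 8 tested genes of the retinoic acid pathway, an inducer of Hox genes, Rarg rose by 0.47 ± 0.13 (adjusted p = 0.0427), while Crabp1 fell by 0.72 (adjusted p = 0.0208) and Rara fell by 0.45 (limma, adjusted p = 0.0484). The median of the list was -0.13. Without the filter on dim genes, Lmo4, Rarg, Crabp1 and Rara were not called (limma, adjusted p = 0.13, 0.133, 0.0886 and 0.125).

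In the Hedgehog pathway, which acts upstream of Nkx2-9 in the neural tube, Gli1 and Foxa2 rose and the other 6 tested genes did not pass (median 0.23). Gli1, a transcription factor and target of the pathway, read 412.2 and 470.2 against 158.5 and 206.1, a log2 difference of 1.20 ± 0.13 (limma, adjusted p = 0.000551). Foxa2, a floor plate and endoderm factor, read 35.7 and 51.9 against 9.9 and 16.3 and rose by 0.94 ± 0.20 (adjusted p = 0.0139). It passed the filter only through the knockdown signal, and the call was lost without the filter (limma, adjusted p = 0.0636). Ptch1, the receptor and another target, read 889.8 and 785.4 against 714.9 and 713.5 (0.22 ± 0.09, adjusted p = 0.122). Shh, the ligand, was below the filter level on all 4 arrays (8.3 to 16.4).

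Among 22 other tested homeobox genes, 3 rose, 2 fell and 17 did not pass (median 0.15), and 60 more on the array were below the filter. Zeb1, a repressor of epithelial genes, rose by 1.14 ± 0.17 (limma, adjusted p = 0.00292). Msx1, a factor of the limb and neural crest, rose by 1.07 ± 0.15 (adjusted p = 0.00219), and the pluripotency factor Nanog by 0.87 ± 0.08 (adjusted p = 0.000299). Otx2, a factor of the anterior brain and the epiblast, fell by 0.90 ± 0.10 (adjusted p = 0.000511), and Satb1, a chromatin organiser, fell by 0.79 ± 0.16 (adjusted p = 0.0111, and 0.0654 without the filter).

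Markers of fibroblasts and of mesoderm and endoderm were mostly dim, while 8 of 15 neural markers passed the filter. Fibroblasts, including feeder cells, carry Hox expression, and 14 of 17 fibroblast markers were below the filter. Their summed signal was 320.7 and 362.2 in the knockdown and 302.5 and 299.1 in the control. The largest part of that sum was Acta2, at 103.7 and 119.5 against 92.2 and 77.5. Col1a1, an abundant fibroblast transcript, read 16 and 5.9 against 10.3 and 13.7. None of the 3 tested markers passed after adjustment (limma). At an unadjusted p under 0.05 (limma), 2 were higher, Col5a1 (0.43) and Acta2 (0.33), and 1 lower, Thy1 (-0.48). Below the filter, Col3a1 (0.50) and Postn (0.30) were higher without overlap, and Lox (-0.28) and Prrx1 (-0.16) were lower without overlap. Neural markers summed to 2580 and 2629 against 2581 and 2597, a sum in which 1 gene, Stmn2, gave 1306.5 and 1250.0 against 1393.4 and 1362.3. Of the 8 tested, Nefl rose (limma, adjusted p = 0.00442), Gap43 fell (adjusted p = 0.00125) and 6 did not pass. Mesoderm and endoderm markers summed to 243.2 and 308.7 against 170.4 and 188.0, and 11 of 13 were below the filter. Foxa2 was the 1 of them that passed, with the call lost without the filter (limma, adjusted p = 0.0636). The part of such cells in the homeobox results was not tested.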

How the data were processed

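RNA of 2 knockdown and 2 control samples was read on 4 Affymetrix arrays. The deposited values are signal intensities on a linear scale that the authors made with GCOS, per the submitters' processing notes; the sources used here do not give its version or signal algorithm. The arrays share one trimmed mean, so they had been scaled to a common level. Signals were analysed as log2(signal + 20.0), the pseudocount being 10% of the trimmed mean of 200.1. Of several probe sets of a gene, that with the highest mean was used, with _x_at probe sets only where there was no other. Gene symbols came from the platform annotation, updated through the RefSeq table of GRCm38.p6 (20351 of 20380 probe sets matched). Of 12393 genes, 7815 at or above the 40th percentile (23.9) were tested with limma 3.58.1 in R 4.3.3 (intensity trend, two-sided, Benjamini-Hochberg). Adjusted p-values come from this fit over all genes unless a fit without a filter or by probe set is named. On simulated arrays with 7815 genes, 100% of the genes given a log2 difference of 1 were called, with 7 false calls. The simulated noise was normal, with an SD set by signal level alone, so this recovery does not measure power on the real arrays. Named genes are those called, those 2-fold higher or lower with no overlap, the highest and extreme genes of each family, those whose probe sets disagree, and up to 3 called genes per companion list; other genes were named after their values were seen. The members, lists and promoter motifs were chosen with earlier results of these data known. Deviations of same-numbered arrays were weakly and negatively correlated (r = -0.14 across 7815 genes, which are not independent replicates). Replicate numbers were therefore not taken to pair samples. Alternatives changed the pseudocount, filter, scaling, variance model, probe set, threshold and replicate block, and left out each array.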

Additional observations from a re-analysis of the deposited data

How the results depend on the processing

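Hoxa5, Nkx2-9, Six2 and Six4 kept their direction under every alternative in which they were tested. Their calls held with each single choice changed, but Nkx2-9 lost its call when every probe set was tested by itself without the filter (limma, adjusted p = 0.0635). With the filter at the 60th percentile only Six4 of the families was tested, and the count of called members was 1 instead of 4; it was 4 to 6 when each array was left out in turn, with Hoxc6 and Lhx3 added without knockdown replicate 1, where the lone knockdown array is assumed to vary like the control. The 2-fold count of 4 became 10 with the smaller pseudocount, 1 with the larger one and 8 at 1.5-fold, and was 4 to 5 with each array left out. Over all genes, 1127 were called, against 433 without the filter, 393 at an adjusted p under 0.01 and 643 to 1087 with each array left out. Without knockdown replicate 2 the count was 643 and without control replicate 1 it was 715. Calls split 729 higher and 398 lower, but 622 and 598 with arrays centred on the median and 1413 and 30 with the spike-in scaling. With the replicate number as a block, 1187 genes and 4 homeobox genes were called. The crossed replicate block, added after seeing the data, gave 1478 and 4. Sizes for genes with a control signal near background are limited by the 2 arrays per group and by the pseudocount.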
